A study of Mus musculus with 12 samples.

Results

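A set of 6 genes that neurons transcribe quickly after they fire were followed across the hippocampus of 12 mice: Arc, Fos, Egr1, Homer1, Jun and Myc. They were taken by symbol from a panel of 770 genes, and all 6 were found and read above the floor value of 20 in every mouse. They were selected on measured values: the difference between the genotypes in these same samples was known for each of them when they were brought together, so their genotype differences are given below as a description and without a test. The assay was NanoString nCounter, in which colour-coded probes are counted directly on total RNA without amplification, and its values are normalized counts. Probes differ in efficiency, so levels are compared between mice and not between genes.

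All animals were C57BL6/J mice of 13 months, group housed and fed without restriction. The groups were 3 control females, 3 control males, 3 mtOGG1 females and 3 mtOGG1 males. OGG1 is a DNA glycosylase that removes oxidized guanine, and by the title of the series the mtOGG1 mice express it in mitochondria; the promoter and cell type that drive it are not given in the sources used here, nor is any allele of the controls beyond that label. The labels number the samples of a group and do not say whether littermates or batches were shared, so p-values measure the spread between these samples only.

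Immediate early genes are switched on within minutes of synaptic activity, without the need for new protein. Calcium entry through NMDA receptors and voltage-gated channels activates kinases that phosphorylate CREB and the partners of serum response factor, and these bind elements in the promoters of the early genes. Their products divide into transcription factors that drive a later wave of genes (Fos and Jun, which pair as AP-1, the zinc finger protein Egr1, and Myc) and proteins that act at the synapse (Arc, which promotes removal of AMPA receptors, and Homer1, a scaffold that links metabotropic glutamate receptors to the postsynaptic density). In the hippocampus Arc and Fos RNA are widely used to mark recently active neurons. Homer1 also makes long constitutive transcripts beside a short one induced by activity, and the labels do not say which of them its probe reads.

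CREB binds the cyclic AMP response element, so the promoters of members were searched for it. A RefSeq table for GRCm38.p6 held promoters for 3 of the 6, Fos, Homer1 and Jun. The 250 bases before the annotated start are shown for Fos at chr12:85473640-85473889 on the plus strand, for the upstream start of Homer1 at chr13:93303507-93303756 on the plus strand and for Jun at chr4:95052223-95052472 on the minus strand. The Fos and Homer1 promoters are shown for the element core, TGACG on either strand, which is in capitals. The Jun promoter is shown as the remaining one of the 3. Whether the core relates to any genotype difference was not tested.
Fos: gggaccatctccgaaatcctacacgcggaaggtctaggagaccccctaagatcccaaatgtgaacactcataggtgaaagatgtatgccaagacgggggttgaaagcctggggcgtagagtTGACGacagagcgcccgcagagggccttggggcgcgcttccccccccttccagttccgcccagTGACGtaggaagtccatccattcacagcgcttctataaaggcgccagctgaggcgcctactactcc
Homer1: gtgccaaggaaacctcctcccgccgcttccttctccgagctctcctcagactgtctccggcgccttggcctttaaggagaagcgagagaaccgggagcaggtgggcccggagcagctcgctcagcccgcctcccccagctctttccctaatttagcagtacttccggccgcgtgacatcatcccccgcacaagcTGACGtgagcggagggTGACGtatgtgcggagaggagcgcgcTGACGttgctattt
Jun: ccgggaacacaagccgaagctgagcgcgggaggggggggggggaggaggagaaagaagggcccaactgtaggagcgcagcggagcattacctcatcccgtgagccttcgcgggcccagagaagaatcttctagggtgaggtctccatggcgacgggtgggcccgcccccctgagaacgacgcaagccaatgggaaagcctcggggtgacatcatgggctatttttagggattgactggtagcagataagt
The core stood at 129 to 125 and at 66 to 62 bases before the start of Fos. It occurred 3 times before Homer1, at 56 to 52, 40 to 36 and 14 to 10 bases from the start. The Jun window and the window of a downstream Homer1 start at chr13:93307784-93308033 held none, which says only that these letters are not in those windows. Of 32851 promoters of the same length, 17.8% held the core and 1.55% the full element TGACGTCA, which contains the core and which none of the windows held. The AP-1 element TGANTCA (6.75% of promoters), the E box CACGTG (6.02%), the Egr1 element GCGTGGGCG (0.536%) and the CArG box of serum response factor (1.47%) were not matched in any of these windows on either strand. Bases farther than 250 before a start were not searched, so elements there would be missed.

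The deposited table holds scaled values, and the counts behind them were inferred here by dividing the values above the floor by 1 factor per mouse, estimated from the values themselves. The factors so inferred ran from 0.82 to 1.27 and the total counts per mouse from 281838 to 418467. The inferred counts of the members were 237 to 2055 for Arc, 93 to 980 for Fos, 1076 to 4145 for Egr1, 1068 to 2975 for Homer1, 209 to 425 for Jun and 31 to 48 for Myc. Slc17a7, the vesicular glutamate transporter of hippocampal and cortical excitatory neurons, stood between 2790.4 and 5059 in all mice. Slc17a6, the transporter of subcortical neurons such as those of the thalamus, varied from 195 to 1597. Ttr, the transthyretin gene of the choroid plexus, varied from the floor of 20 to 1525. These last genes are not typical of hippocampus, and their values are set beside the results they move with.

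Fos encodes the inducible subunit of AP-1. The 3 control females stood at 454, 972 and 352 normalized counts and the 3 control males at 409, 488 and 579.8. The mtOGG1 females stood at 264, 209 and 249.8 and the mtOGG1 males at 113, 153 and 85.0. All 6 mtOGG1 mice were below the lowest control, and every mtOGG1 male was below every mtOGG1 female. The group means were 592 ± 332 in control females, 492 ± 85.6 in control males, 241 ± 28.6 in mtOGG1 females and 117 ± 34.3 in mtOGG1 males (SD, n = 3 each). The control groups overlapped. In bulk tissue, fewer neurons that express a gene and less of its RNA per neuron cannot be told apart, here and for every member below.

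Egr1, also called Zif268, is a zinc finger factor with a high resting level in the hippocampus. The control females stood at 3081, 4109 and 2308 normalized counts and the control males at 3034, 3088 and 3265. The mtOGG1 females stood at 2918, 1980.1 and 1579.95 and the mtOGG1 males at 1014, 2286 and 1079.96. Values of the mtOGG1 males lay below all control males, whereas mtOGG1 female 1 lay within the range of the control females. The means were 3166 ± 904 and 3129 ± 121 in control females and males, and 2159 ± 687 and 1459.97 ± 716 in mtOGG1 females and males (SD, n = 3 each), and the females and males of either genotype overlapped.

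Arc, whose RNA travels to dendrites and is translated near active synapses, stood at 827, 2037 and 785 in control females and at 1084, 1011 and 1121 in control males. It stood at 562, 397 and 366 in mtOGG1 females and at 223, 320.3 and 234 in mtOGG1 males. Every mtOGG1 mouse was below every control, and again the mtOGG1 males lay below the mtOGG1 females. The means were 1216 ± 711 in control females, 1072 ± 55.8 in control males, 441 ± 105 in mtOGG1 females and 259 ± 53.2 in mtOGG1 males (SD, n = 3 each). The control groups overlapped, with control female 2 far above the other 5 controls for Arc and for Fos alike.

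Homer1 stood at 2839, 2607 and 1770.4 in control females and at 2646, 2062 and 2439.9 in control males. It stood at 2378, 1956 and 1033 in mtOGG1 females and at 1007, 2097 and 1074 in mtOGG1 males. The groups overlapped in both sexes, because mtOGG1 female 1, mtOGG1 female 2 and mtOGG1 male 2 had values in the range of the controls. The means ran from 2406 ± 562 in control females and 2382 ± 296 in control males to 1789 ± 688 in mtOGG1 females and 1392 ± 611 in mtOGG1 males (SD, n = 3 each).

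Jun, the partner of Fos in AP-1, stood at 331, 395 and 313 in control females and at 292, 339 and 285 in control males. It stood at 297, 238 and 354 in mtOGG1 females and at 360.1, 420.2 and 353 in mtOGG1 males. In males all 3 mtOGG1 mice were above all 3 controls, and in females the genotypes overlapped. The order of means was mtOGG1 males at 378 ± 37.0, control females at 346 ± 42.7, control males at 306 ± 29.4 and mtOGG1 females at 296 ± 58.4 (SD, n = 3 each), and neighbours in that order overlapped. Myc, the growth-related factor, stayed between 33.8 and 46.5 normalized counts in the 12 mice. Its group means ran from 37.3 ± 2.18 in control males to 41.8 ± 6.98 in mtOGG1 males (SD, n = 3 each), and all groups overlapped at counts close to the floor.

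**Figure D1:**
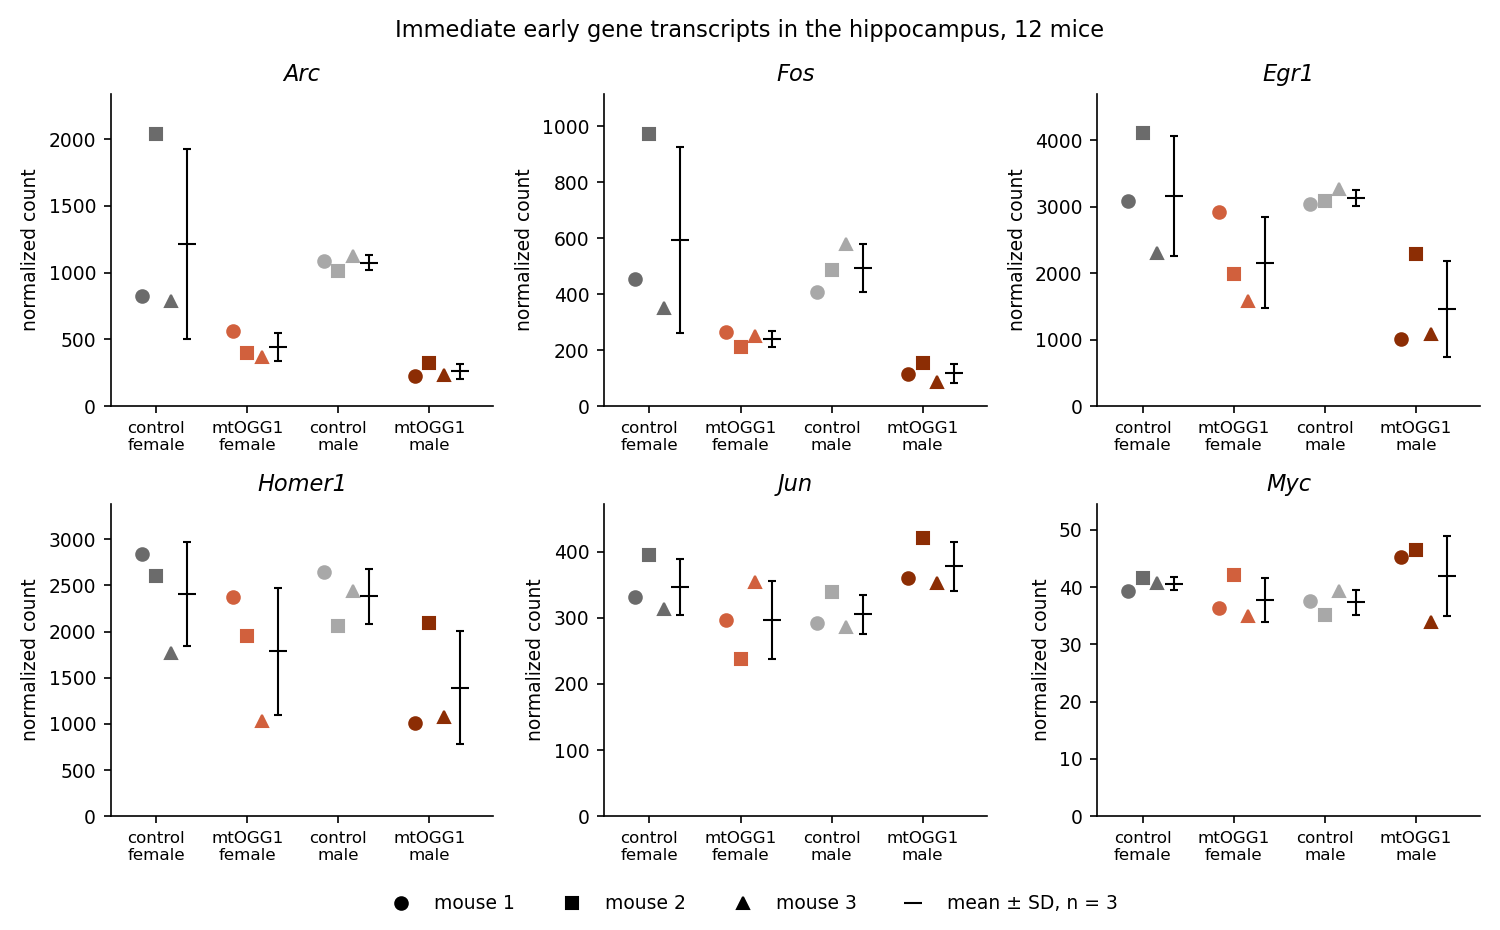
Normalized counts (vertical axis, from 0) of each gene in the 12 mice, by group; symbols are mice 1 to 3 of a group and bars are the mean ± SD of 3 mice. Arc and Fos of all 6 mtOGG1 mice lie below all 6 controls, Egr1 of the genotypes overlaps in females but not in males, Homer1 and Myc overlap in both sexes, and Jun of the mtOGG1 males lies above that of the control males.

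Over both sexes the genotype groups of 2 of the 6 members, Arc and Fos, did not overlap, mtOGG1 being lower; this held for 0.822% of the 608 genes tested, those above the floor in at least 3 mice. In females the same 2 members lay apart, against 3.45% of genes. In males Arc, Fos and Egr1 lay below, against 12.0% of genes, and Jun lay above, against 5.76%. The members had been chosen with this contrast known, so nothing is read from these counts.

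On the log2(value + 1) scale, the differences (mtOGG1 minus control, averaged over the sexes) were -1.70 for Arc and -1.62 for Fos, with standard errors of 0.20 and 0.21. They were -0.88 for Egr1 and -0.67 for Homer1 with standard errors of 0.20 and 0.21. Jun had 0.03 and Myc 0.02, with standard errors of 0.10 and 0.11. From the lowest of the 608 differences upward, Arc ranked 1, Fos 2, Egr1 4 and Homer1 8. The median was -0.77 over the 6 members and -0.0086 over all genes tested. The members had been chosen with this difference known, so nothing is read from these ranks or medians. In each sex the order from Arc and Fos to Egr1 and Homer1 was kept. The values were -1.34, -1.16, -0.56 and -0.48 in females (standard errors 0.28 to 0.30). In males they were -2.06, -2.09, -1.20 and -0.85 (the same standard errors). The fit shares its estimate of the spread of a gene among all groups, so equal standard errors do not mean equal spread in the sexes. Without control female 2 the female values were -0.89 for Arc, -0.73 for Fos and -0.35 for Egr1. Without mtOGG1 female 3 the value for Homer1 in females was -0.13.

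**Figure D2:**
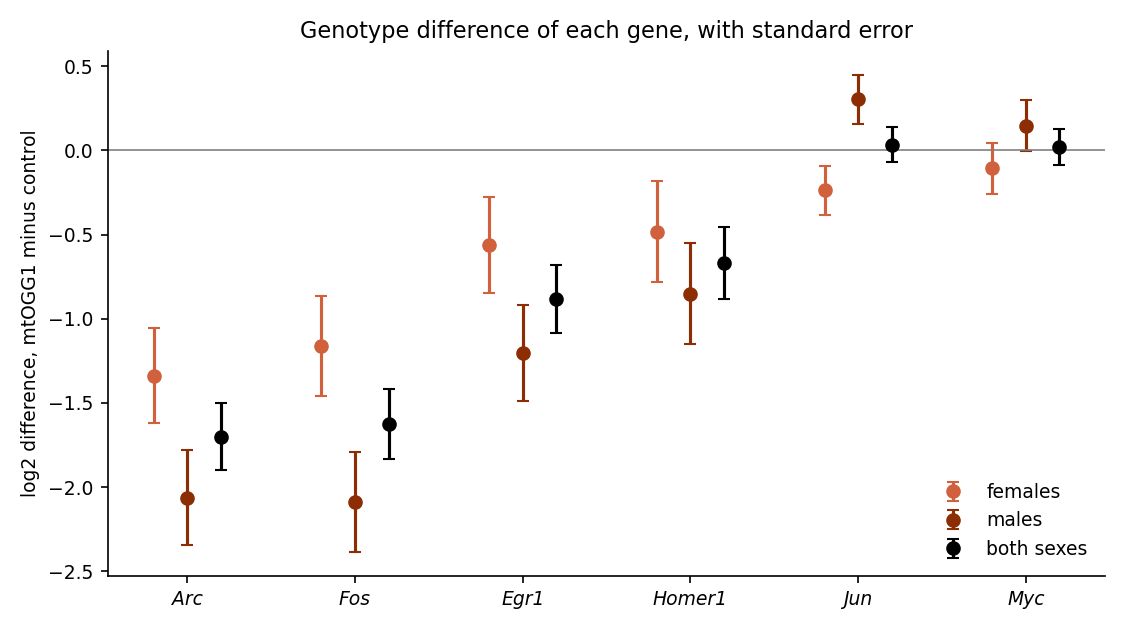
Log2 difference in normalized count, mtOGG1 minus control (vertical axis), for each gene in females, in males and over both sexes; bars are the standard error of the fit. Arc and Fos lie lowest, from -1.16 to -2.09, Egr1 and Homer1 lie between, Myc runs from -0.11 to 0.15, and Jun is at -0.24 in females, 0.30 in males and 0.03 over both.

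Whether the genotype difference itself depended on sex was tested by the interaction (difference in females minus difference in males). For Fos it was 0.93 (95% interval 0.03 to 1.83; limma, adjusted p = 0.932), and for Arc 0.72 (-0.14 to 1.58; adjusted p = 0.959). Egr1 had 0.64, from -0.22 to 1.51, and Homer1 0.37, from -0.55 to 1.28 (adjusted p = 0.959 and 0.988). Jun had the opposite sign, -0.54 (-0.98 to -0.10; adjusted p = 0.932), lower in mtOGG1 females and higher in mtOGG1 males; Myc had -0.25, from -0.71 to 0.20. By limma 0 of 6 members and 0.0% of the 608 genes passed after adjustment. At an unadjusted p under 0.05 stood 2 members, Fos and Jun, and 4.77% of all genes. With 1 mouse left out the values ran from 0.48 to 1.17 for Arc and from 0.62 to 1.35 for Fos, highest without control female 2 for both, from 0.40 to 1.02 for Egr1 (highest without mtOGG1 male 2), and from 0.12 to 0.72 for Homer1 (lowest without mtOGG1 female 1, highest without mtOGG1 female 3). The intervals are wide, and differences between the sexes of up to 1.83 on the log2 scale for Fos remain within them. They rest on the shared estimate of spread, whereas the spread of Arc and Egr1 was uneven among groups, as given below.

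Averaged over the genotypes, Fos was 0.61 higher in females than in males on the log2 scale (95% interval 0.16 to 1.05; limma, adjusted p = 0.474) and Arc 0.40 higher (-0.03 to 0.83; adjusted p = 0.773). Egr1 stood at 0.30 (-0.13 to 0.73), Homer1 at 0.18 (-0.28 to 0.63), Jun at -0.09 (-0.31 to 0.13) and Myc at -0.01 (-0.24 to 0.22). Without control female 2 the values were 0.39 for Fos and 0.17 for Arc, and without mtOGG1 female 1 they were 0.18 for Egr1 and 0.05 for Homer1. None of the 6 members passed, against 0.658% of all genes. At an unadjusted p under 0.05 stood 1 member, Fos, and 6.41% of all genes. With Slc17a7 as a covariate, an alternative chosen after seeing the data, the value for Egr1 was 0.425 at an adjusted p of 0.00878.

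Within groups the members differed in how much they varied. The residual SD over the 12 mice was 0.44 for Arc, 0.46 for Fos, 0.45 for Egr1 and 0.48 for Homer1 on the log2 scale, and 97.5% to 98.5% of the genes tested varied less. Counting alone, from the inferred counts, would give 0.03 to 0.10 for these genes. Jun had 0.19 and Myc 0.15, near the median of 0.18 over all genes tested, and for Myc counting alone would give 0.23. The spread was uneven among groups: the coefficient of variation of Arc was 5.20% in control males and 58.5% in control females, and that of Egr1 was 3.86% in control males and 49.0% in mtOGG1 males.

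To see which members moved together, each value was taken as its deviation from its group mean, so that genotype and sex did not enter, and the 15 pairs of members were correlated over the 12 mice. Arc and Egr1 were on the same side of their group means in 10 of 12 mice, with a Pearson r of 0.774 (exact permutation within groups, two-sided p = 0.00154, adjusted over 15 pairs 0.0231) and a Spearman rho of 0.79 (permutation p adjusted 0.0231). Without the 2 mice farthest from the median of Arc, r was 0.96. It was 0.884 among controls and 0.958 among mtOGG1 mice. With 1 mouse left out at a time r ran from 0.724 to 0.936, and the adjusted permutation p stayed under 0.05 in 4 of 12 repeats, those without control female 1, control female 2, control male 1 or control male 2, with 432 orders in each.

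This was the only pair of members to pass over all 12 mice. Egr1 and Homer1 had an r of 0.883 and Arc and Fos one of 0.867, each at an adjusted permutation p of 0.0984. For Arc and Fos r was 0.937 among controls, where control female 2 lies high for both, and 0.648 among mtOGG1 mice. Fos and Egr1 had 0.70 (adjusted permutation p = 0.118), Arc and Homer1 0.534 (0.274), and Fos and Homer1 0.387 (0.196 without mtOGG1 male 2). Arc and Homer1 passed without control female 2, at an r of 0.853, and without control female 1, at 0.709 (adjusted permutation p = 0.0347 for both). Fos and Jun, the subunits of AP-1, lay on the same side in 11 of 12 mice with an r of 0.616 (adjusted permutation p = 0.0984). The remaining pairs of Jun and Myc had r from -0.197 to 0.43 and did not pass.

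**Figure D3:**
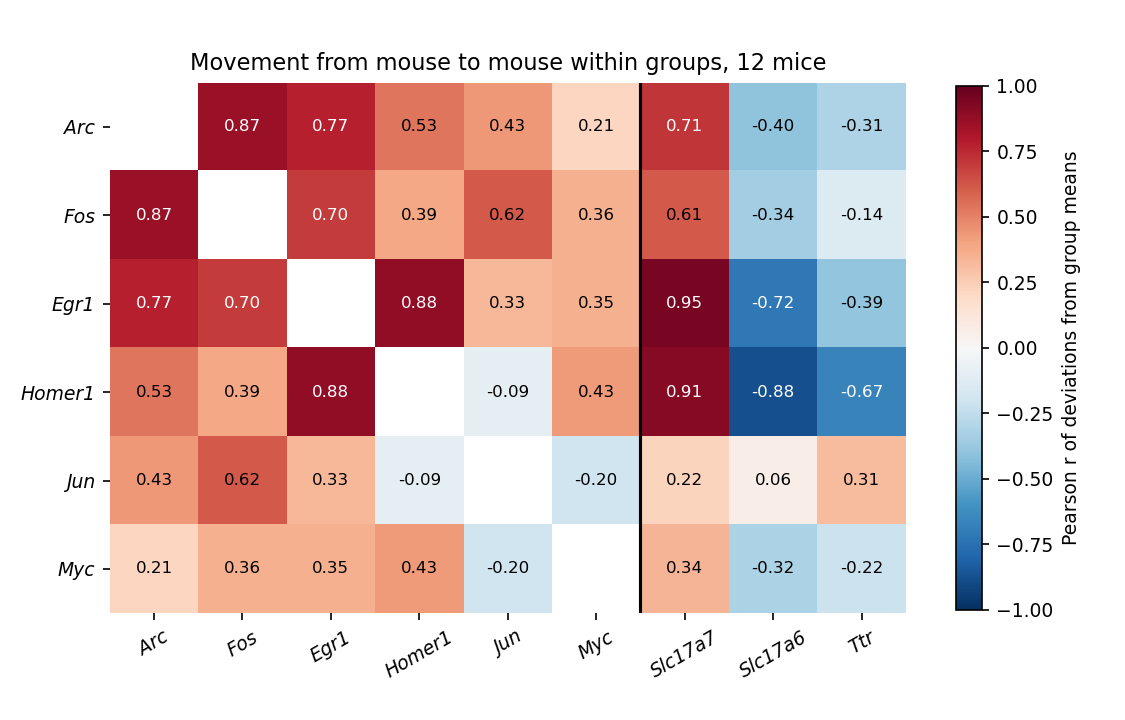
Pearson r (colour and printed value) between deviations from group means on the log2 scale over 12 mice, among the 6 genes and, right of the line, with Slc17a7, Slc17a6 and Ttr. Egr1 and Homer1 run with Slc17a7, and Homer1 runs against Slc17a6.

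The regional genes were set against the members in the same way, in 18 pairs that were added after seeing the data. Their p-values are adjusted over these 18 pairs only, which does not cover the choice of the pairs, and are given as a description. Homer1 and Slc17a6 lay on opposite sides of their group means in 12 of 12 mice, with an r of -0.879 (exact permutation p = 0.000772, the smallest that 1296 orders can give; adjusted 0.0139) and a rho of -0.867 (permutation, adjusted 0.0139). Without the 2 mice farthest from the median of Homer1, r was -0.944, and it was -0.973 among controls and -0.977 among mtOGG1 mice. Homer1 also ran with Slc17a7, at 0.913, and against Ttr, at -0.67 (adjusted permutation p = 0.0278 for both). Egr1 ran with Slc17a7 at 0.947 (adjusted permutation p = 0.0278), and against Slc17a6 at -0.717 without passing (adjusted permutation p = 0.111). Arc ran with Slc17a7 at 0.712 (adjusted permutation p = 0.0389; r from 0.634 to 0.942 with 1 mouse left out), and its r with Slc17a6 was -0.401 (adjusted permutation p = 0.637). That r was -0.763 without control female 1, -0.733 without the 2 mice farthest from the median of Arc, -0.199 among controls and -0.869 among mtOGG1 mice. Fos had 0.615 with Slc17a7 and -0.345 with Slc17a6, neither of which passed (adjusted permutation p = 0.155 and 0.637). Of the 18 pairs 5 passed by Pearson r and 1 by Spearman rho, that of Homer1 and Slc17a6.

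**Figure D4:**
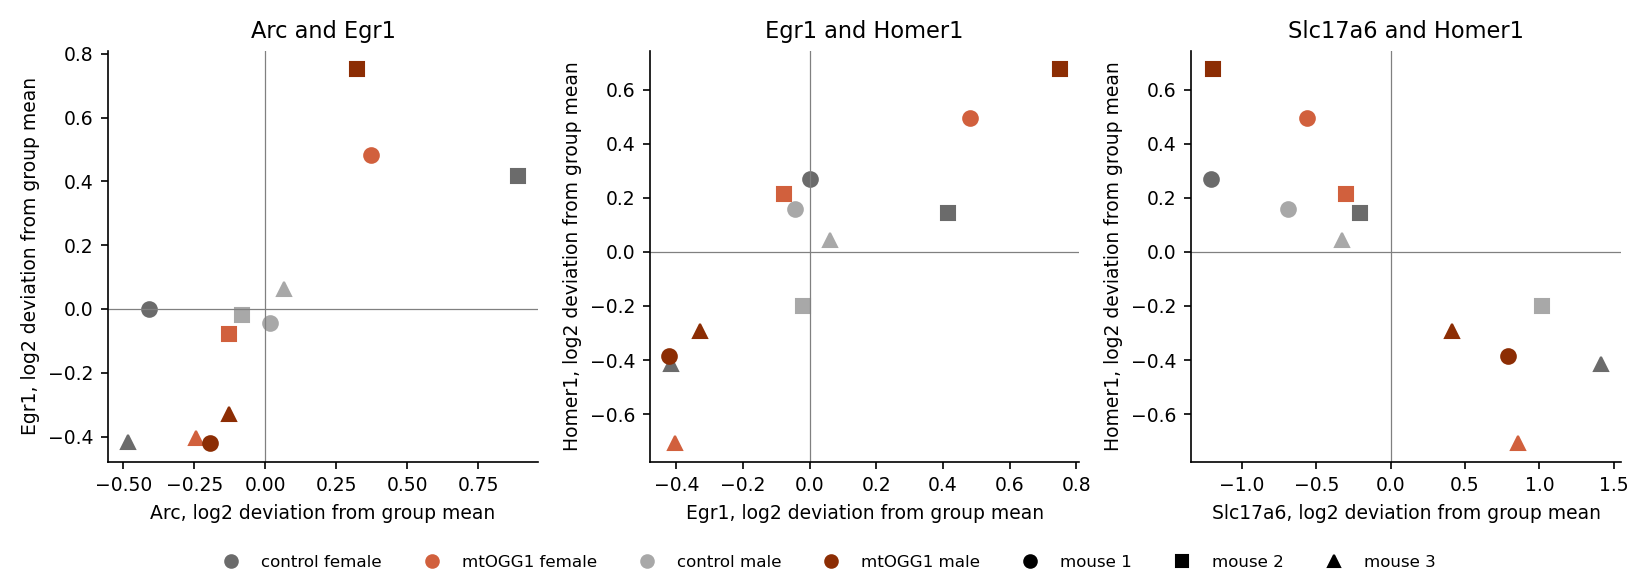
Deviation of each mouse from its group mean on the log2 scale, for Arc against Egr1, Egr1 against Homer1 and Slc17a6 against Homer1; colours are groups and symbols are mice 1 to 3. All 12 mice fall in the upper left or lower right of the last panel, where Homer1 is on the other side from Slc17a6.

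Individual mice did not all follow this. Control female 3 had 1208 normalized counts of Slc17a6, the most among controls, and the lowest Egr1 (2308) and Homer1 (1770.4) of the 6 controls. Control female 1 had the least Slc17a6 of all mice, 195, and the highest Homer1 (2839), but its Egr1 (3081) was the middle value of its group. Control male 2 had the most Slc17a6 of the control males, 726, and the lowest Homer1 (2062), but its Egr1 (3088) was above that of control male 1 (3034), which had the least Slc17a6. In mtOGG1 male 2 Slc17a6 was 403 and Slc17a7 5059, the highest of all mice, and its Egr1 (2286), Homer1 (2097), Arc (320.3) and Fos (153) were each the highest of its group.

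Slc17a6 averaged 505 ± 395 in controls and 956 ± 505 in mtOGG1 mice (SD, n = 6 each), a log2 difference of 1.06 that did not pass (limma, adjusted p = 0.401). Slc17a7 differed by -0.04 (adjusted p = 0.907) and Ttr by 1.24 (adjusted p = 0.674). With Slc17a6 as a covariate the genotype difference over both sexes was -1.52 for Arc and -1.46 for Fos, but -0.55 for Egr1 and -0.24 for Homer1. In males these values were -1.83, -1.88, -0.78 and -0.30. With Slc17a7 as a covariate they were -1.65, -1.58, -0.82 and -0.60 over both sexes, and with Ttr -1.63, -1.59, -0.79 and -0.50. Over both sexes Jun and Myc stayed between 0.00 and 0.07 in these fits. In males Jun had 0.24 to 0.31 and Myc 0.15 to 0.21. In females Jun had -0.24 to -0.22 and Myc -0.10 to -0.07.

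**Figure D5:**
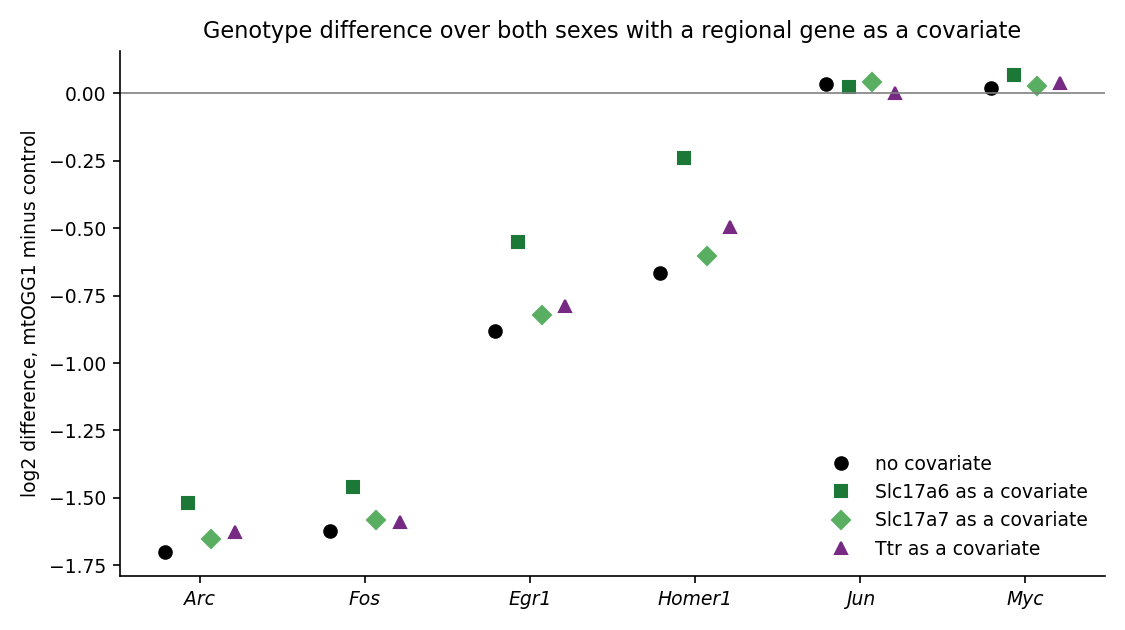
Log2 difference, mtOGG1 minus control over both sexes (vertical axis), for each gene without a covariate and with Slc17a6, Slc17a7 or Ttr as a covariate. With Slc17a6 the value for Homer1 goes from -0.67 to -0.24, that for Egr1 from -0.88 to -0.55, that for Arc from -1.70 to -1.52 and that for Fos from -1.62 to -1.46.

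Among the 602 other genes tested, those whose deviations were most like a member's over the 12 mice are given by Pearson r as a description; all values of a mouse share its library and scaling factor. For Arc they were Grin2a, an NMDA receptor subunit (0.956), Npnt (0.952) and Bcl2l11 (0.873, at a mean of 20.8, close to the floor). For Fos they were Grin2a (0.913), Bcl2l11 (0.875) and the neurotrophin gene Bdnf (0.872). For Egr1 they included the neuronal pentraxin Nptx1 (0.949) and Slc17a7 (0.947). For Homer1 they included neurogranin, Nrgn (0.946), and Tbr1, a factor of excitatory forebrain neurons (0.939).

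Other activity and primary response genes were fewer on the panel: of 56 listed 9 were present and 6 could be tested, Atf3 and Ccl2 being at the floor in every mouse. None of the 6 passed over both sexes (limma), against 1.32% of all genes, or 8 of 608, of which 1 was higher and 7 lower (0 and 8 with median centring, 0 and 6 scaled on reference genes). At an unadjusted p under 0.05 stood 4 of the 6, Ptgs2, Bdnf, Gadd45g and Gadd45a, and 11.7% of all genes. Both shares of all genes include the members, which had been chosen with this contrast known. All 6 tested genes of this list lay below 0, with a median of -0.28 against -0.0086 for all genes tested. For 2 of them the difference was about the size of its standard error. Socs3, above the floor in only 5 mice, had -0.11 (standard error 0.14). Nfkbia had -0.15 (standard error 0.14) and lay above 0 in males, at 0.08. Ptgs2, the inducible cyclooxygenase, averaged 137 ± 19.2 in controls and 97.5 ± 18.5 in mtOGG1 mice (SD, n = 6 each), a log2 difference of -0.50 (adjusted p = 0.0722). It passed without control female 3 (-0.57, adjusted p = 0.0364) and without mtOGG1 male 2 (-0.58, adjusted p = 0.0183). Bdnf averaged 253 ± 54.3 and 187 ± 49.1 (SD, n = 6 each), a difference of -0.45 (adjusted p = 0.315), and passed without mtOGG1 male 2 (-0.61, adjusted p = 0.0335). Gadd45g had -0.28 (adjusted p = 0.401).

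Of the genes that carry signals to the members, 21 of 43 listed were tested and none passed by limma in either direction, 14 lying below 0 and 7 above, with a median of -0.08. At an unadjusted p under 0.05 stood 3 of the 21, against 11.7% of all genes: Camk4, Grm3 and Bdnf, which is listed in both sets. Camk4, a nuclear kinase that phosphorylates CREB, had -0.45 (adjusted p = 0.374). Grin2a had -0.24 (adjusted p = 0.533) and Creb1 itself 0.02. Of partners and synaptic neighbours of the members 4 of 20 could be tested and none passed. Of these 4, 2 stood at an unadjusted p under 0.05, Dlg1 and Syn2, against the same 11.7% of all genes. Dlg1, a scaffold of the PSD-95 family, had -0.34 (adjusted p = 0.286) and Dlg4, which encodes PSD-95, 0.00.

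Markers of the cell types in the tissue were read beside the members. Their counts at an unadjusted p under 0.05 are over both sexes, where 11.7% of all genes stood at that cut. Of 13 neuron markers none passed (4 at an unadjusted p under 0.05, Slc17a6, Nrgn, Bdnf and Syn2), 7 lying above 0 and 6 below, with a median of 0.0043. Their summed level was 24722 to 28584 in control females, 22331 to 30780 in mtOGG1 females, 27141 to 27830 in control males and 23940 to 31213 in mtOGG1 males. Of 14 oligodendrocyte markers 11 lay above 0, with a median of 0.23 over both sexes and none that passed (5 at an unadjusted p under 0.05), and 13 of 14 lay above in males, with a median of 0.41, where Opalin passed, against 0.987% of all genes in males. Their summed level was 13007 to 17941 in control males and 17524 to 24945 in mtOGG1 males, against 17992 to 24158 and 18105 to 24007 in control and mtOGG1 females. Of 7 astrocyte markers (median 0.07) and 14 microglia markers (median -0.0055) none passed, with 2 and 0 at an unadjusted p under 0.05. Over both sexes all 7 endothelial markers lay below 0, with a median of -0.22, and in males the median was -0.36. Of the 7, 2 stood at an unadjusted p under 0.05, Esam and Ly6a. Ly6a passed, lower, over both sexes (limma, adjusted p = 0.0486) and in males (limma, adjusted p = 0.0253), against 1.32% and 0.987% of all genes. With no filter on the floor, no gene passed in either of these contrasts. The summed level of the endothelial markers was 873 to 986 in control males and 662 to 758 in mtOGG1 males, which do not overlap, and 712 to 918 and 704 to 866 in control and mtOGG1 females, which do. Of the 608 single genes, 12.0% had all mtOGG1 males below all control males. Ly6a, which is part of this sum, averaged 303 in control males and 191 in mtOGG1 males. The filter itself leaves no tested marker at the floor in all mice, and the oligodendrocyte marker Ninj2 was above the floor in only 3. The part of any cell type in the members' values was not tested.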

How the data were processed

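Total RNA of 12 hippocampi was counted on an nCounter panel. The deposited values are normalized counts, used here as a signal, made with nCounter Advanced Analysis tools per the labels; the values themselves are multiples of 1 factor per mouse, from which counts were inferred, above a floor of 20. The normalization can move every gene of a mouse together. The 6 positive and 8 negative control rows were left out. Genes above 20 in at least 3 mice (608 of 770) were fitted as log2(value + 1) with limma 3.58.1 in R 4.3.3 (4 group means, variance trend, Benjamini-Hochberg at 0.05). A log2 difference on this scale understates that of low genes. Because the deposited values are scaled and floored, no count model was used. Co-movement was tested by exact permutation within groups, in Python 3.11.15 with scipy 1.17.1. The fit was tested on simulated data. Alternatives were other pseudocounts, filters, scalings, variance models, covariates, a replicate block and leaving out each mouse. Named genes were the members, the largest differences in each list and the 3 genes most like a member, of which some are not reported here. The members and lists were chosen with earlier results of these data known. RefSeq promoters (GRCm38.p6) were searched on both strands.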

Additional observations from a re-analysis of the deposited data

Results flagged for a closer look

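Among the 6 controls, Arc in control female 2 stood at 2037 normalized counts, with the next control at 1121, a gap of 0.732 of the whole range. Fos in the same mouse stood at 972, with the next control at 579.8, a gap of 0.632 of the range. Both gaps lie beyond Dixon's critical value at the 95% level. They were taken on normalized counts and not on the log2 scale of the fits, where gaps at the high end are smaller. With 12 groups examined (6 genes in 6 control and in 6 mtOGG1 mice), chance alone flags about 1 in 20 groups, and the same mouse accounts for both.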

How the results depend on the processing

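The members' genotype differences over both sexes carry no test; with 1 mouse left out they ran from -1.82 to -1.48 for Arc, -1.78 to -1.41 for Fos, -1.07 to -0.78 for Egr1 and -0.835 to -0.49 for Homer1, and with Slc17a6 as a covariate Homer1 had -0.24 and Egr1 -0.55. In females Arc was -0.89 without control female 2 (-1.58 to -0.89 with 1 mouse left out), in males Homer1 was -0.30 with Slc17a6, and the sex difference of Egr1 was 0.425 with Slc17a7. No interaction of a member passed in any of 143 repeats. Myc has no value under the filter for a mean of at least 50. Of all genes, 8 passed for genotype over both sexes: 5 at a pseudocount of 5 and of 20, 0 with no filter, 3 at a mean of at least 50, 25 with Slc17a7 and 3 to 12 with 1 mouse left out. In females 0 passed: 1 with Ttr, 1 with Slc17a7, and 0 to 2 with 1 mouse left out. In males 6 passed (1 higher, 5 lower): 0 with no filter, 12 with median centring (3 and 9), 10 scaled on reference genes (3 and 7), 12 with no variance trend, 11 with robust variances, 33 with Slc17a7 and 4 to 19 with 1 mouse left out. For the interaction 0 to 1 passed with 1 mouse left out. For sex 4 passed (2 higher, 2 lower): 2 with no filter, 2 scaled on reference genes (0 and 2), and 2 to 5 with 1 mouse left out. Of the other activity genes 1, Ptgs2, passed for genotype with Slc17a7 (0 to 2 with 1 mouse left out) and 1, Gadd45a, for sex. Of the 15 pairs 1 passed: 2 with median centring and 2 scaled on reference genes, where Egr1 and Homer1 were added, 0 in controls alone and 0 in mtOGG1 mice alone, where 36 orders allow no p under 0.0278, and 0 to 2 with 1 mouse left out. The cause of these changes was not tested. Replicate numbers did not pair the mice uniformly. Of 18 same-numbered pairs r ran from -0.336 to 0.556, with 8 over 0.1, and 4 of 12 mice correlated best with their own number. With 3 mice a group, this cannot tell whether same-numbered mice shared a litter or batch. With the replicate block 7 genes passed for genotype over both sexes and 8 in males, and the value for Arc stayed at -1.70. With 3 mice a group, wide intervals limit the sex comparisons, and counting limits Myc.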
